A study of Mus musculus with 5 samples.

Results

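The 10 genes described here encode transcription factors that direct the fate of myeloid progenitors: Spi1, Gfi1, Gfi1b, Irf8, Myb, Nfe2, Etv6, Erg, Fli1 and Ikzf1. They were taken by name from a table of 52550 mouse genes, and all 10 were found in it and passed the filter on low counts, which left 11766 genes. Counts were made from QuantSeq 3′ RNA-seq libraries, which read the end of each polyadenylated transcript, of sorted Lin-cKit+Sca1- (KL) bone marrow cells. This gate holds the committed myeloid progenitors. Both groups were male mice with the scl-Cre-ERT transgene, in which a tamoxifen-activated Cre is driven by a stem cell enhancer of Scl (Tal1), so that recombination starts in stem cells and is inherited by their progeny. All mice were dosed with 1 mg of tamoxifen on each of 5 days, at an age of 3 to 6 months, and marrow was taken 20 weeks later. The mutant group carried Bcorfl/y (BcorΔE9-10, n = 3) and the control group Bcorwt/y (BcorWT, n = 2). Cre removes exons 9 and 10 of Bcor, a subunit of a variant Polycomb repressive complex 1, and leaves a shortened protein without the domain that binds this complex. The study describes its controls as littermates with either the floxed allele or the Cre alone, and by their labels both control samples here are of the latter kind.

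Lineage choice in the marrow rests on factors that promote one fate and restrain another. PU.1, the product of Spi1, and Irf8 drive monocyte and dendritic genes, while the repressor Gfi1 is needed for granulocytes and its paralogue Gfi1b for red cells and megakaryocytes. Myb, Etv6, Erg, Fli1 and Ikaros (Ikzf1) act earlier, in stem cells and progenitors, and Nfe2 acts late in megakaryocytes. Spi1, Etv6, Erg and Fli1 belong to the Ets family, which binds DNA at a GGAA core.

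The promoters of the 2 factors that rose, Etv6 and Myb, are shown first, with that of Gfi1b, which was added after its values were seen because Gfi1 and Gfi1b are known to repress Gfi1b through its own promoter. RefSeq sequences of build GRCm38.p6, which has the coordinates of mm10, were held for 7 of the 10 factors, each from 250 bases before to 50 bases after a start site. They were not held for Spi1, Nfe2 and Fli1. Each line gives the gene strand 5′ to 3′. Capitals mark GGAA on either strand in Etv6 and Myb, and AATC, the core bound by Gfi1 and Gfi1b, on either strand in Gfi1b.
Etv6, chr6:134035450-134035749, plus strand: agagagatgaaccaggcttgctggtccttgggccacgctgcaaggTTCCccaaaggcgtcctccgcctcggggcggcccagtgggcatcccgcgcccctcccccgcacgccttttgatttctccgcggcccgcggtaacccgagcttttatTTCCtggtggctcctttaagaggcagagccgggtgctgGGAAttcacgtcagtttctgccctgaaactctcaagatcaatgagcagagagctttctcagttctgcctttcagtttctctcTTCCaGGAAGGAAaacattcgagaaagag
Myb, chr10:21160935-21161234, minus strand: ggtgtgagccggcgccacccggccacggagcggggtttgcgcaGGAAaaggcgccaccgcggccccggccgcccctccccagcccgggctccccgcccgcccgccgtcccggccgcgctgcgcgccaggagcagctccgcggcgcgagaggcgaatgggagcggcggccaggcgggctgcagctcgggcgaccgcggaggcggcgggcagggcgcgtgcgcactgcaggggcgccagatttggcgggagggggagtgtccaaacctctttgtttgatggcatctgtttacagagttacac
Gfi1b, chr2:28621933-28622232, minus strand: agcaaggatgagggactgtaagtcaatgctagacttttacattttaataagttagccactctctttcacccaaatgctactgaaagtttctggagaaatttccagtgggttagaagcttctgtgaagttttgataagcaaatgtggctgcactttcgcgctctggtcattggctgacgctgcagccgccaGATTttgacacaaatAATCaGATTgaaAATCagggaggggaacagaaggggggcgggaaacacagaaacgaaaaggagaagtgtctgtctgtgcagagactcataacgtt
The Etv6 promoter held 6 GGAA cores, 3 of them side by side within the 50 bases after the start site, and the Myb promoter held 1. Over 32851 promoters of this length 96.0% held at least 1 GGAA and the median was 3. The Gfi1b promoter held 4 AATC cores, which lie close together, where 73.1% of promoters held at least 1 and the median was 1. The Myb window was rich in CG dinucleotides, with 40 against a median of 7, more than in 96.1% of promoters, while Etv6 held 17 and Gfi1b 7. AACNG, a core bound by Myb, was found 3 times in Etv6 and once in each of Myb and Gfi1b, and 80.3% of promoters held it. AGATAA, bound by Gata factors, and TGAGTCA, bound by NF-E2 and AP-1, were in none of these 3 windows. They were in 11.2% and 5.2% of promoters, respectively. These are matches of letters, counted on both strands, and no binding was measured.

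Libraries held between 5998924 and 8303999 counts. The control libraries differed from each other more than the mutant ones did (chi-square per gene 11.67, against 6.03 to 7.02, where 1 is sampling noise), and each is therefore given separately below. Bcor itself was at 23.2, 27.4 and 21.6 CPM in BcorΔE9-10 and at 11.8 and 16.2 CPM in BcorWT (log2 fold change 0.78, SE 0.218, adjusted p = 0.0313 in limma). Its 3′ end lies outside the deleted exons, so that these counts do not check the deletion. The populations also differed in other marker genes. The 10 neutrophil markers summed to 150000 to 174000 CPM in BcorΔE9-10 and to 216000 to 229000 CPM in BcorWT, and 6 of them were lower (S100a8, S100a9, Ngp, Ltf, Lcn2 and Mmp9, of which Mmp9 did not pass in 3 of 5 fits with 1 library left out). The basophil and mast cell markers summed to 330.0 to 435 CPM against 594 to 768 CPM (4 of 7 tested lower, of which Cpa3 did not pass in 3 of 5 fits with 1 library left out and Hdc not without BcorWT replicate 1), and the eosinophil markers to 253 to 419 CPM against 725 to 862 CPM (3 of 4 tested lower). The erythroid markers summed to 65.7 to 263 CPM against 24.7 to 68.3 CPM, where Car1 passed in limma (in 1 of 5 fits with 1 library left out) and 6 tested genes did not, while 5 of 7 passed in edgeR. The lymphoid markers stood at 18.0 to 33.6 CPM against 9.19 to 20.9 CPM and the stem cell markers at 9.57 to 15.7 CPM against 10.7 and 11 CPM, with 0 genes passing in limma, edgeR or DESeq2 in either list (2 of 7 and 0 of 2 tested at an unadjusted p under 0.05). Of the neutrophil markers 9 had a negative log2 fold change and 1, Camp, a positive one. Camp was at 26900, 25100 and 22700 CPM in BcorΔE9-10 and at 18400 and 23800 CPM in BcorWT (0.25, adjusted p = 0.114 in limma). Of the eosinophil markers Siglecf was higher without passing (0.77, adjusted p = 0.0831 in limma). Cd79a, a B cell marker, stayed under 10 counts in every library, and Fgd5, a stem cell marker, was at 0. Of the gate genes, Ly6a, which encodes Sca1, had at most 8 counts per library, and Kit, on which cells were sorted, was at 49.4 to 53.4 CPM against 18.2 and 19.6 CPM. Early response genes and the heat shock genes Hspa1a and Hspa1b also answer to cell handling. Of 11 tested, 4 passed in limma (36.4%, against 10.1% of all genes tested). Fos and Fosb were higher, and Hspa1a and Hspa1b were lower. Of these 3 passed in edgeR and 1, Fos, in DESeq2, and the groups overlapped for Fosb and Hspa1a. The part of these differences in the values below was not tested.

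Against this background, 3 of the 10 factors changed. Etv6 and Myb rose and Spi1 fell, while the other 7 did not pass an adjusted p of 0.05 in limma, with the p-value adjusted over all genes tested. By comparison 10.1% of all genes tested passed, 6.02% higher and 4.09% lower. The median log2 fold change of the 10 factors was 0.07, and that of all genes tested was 0.004. Levels are given as CPM, counts per 1e+06 TMM-scaled counts, and fold changes are BcorΔE9-10 over BcorWT. KL cells are a mixture, and in such bulk samples fewer cells of a type and less RNA per cell cannot be told apart. Nothing in the labels says that libraries of a group came from separate animals, so that p-values measure the spread between these libraries.

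**Figure D1:**
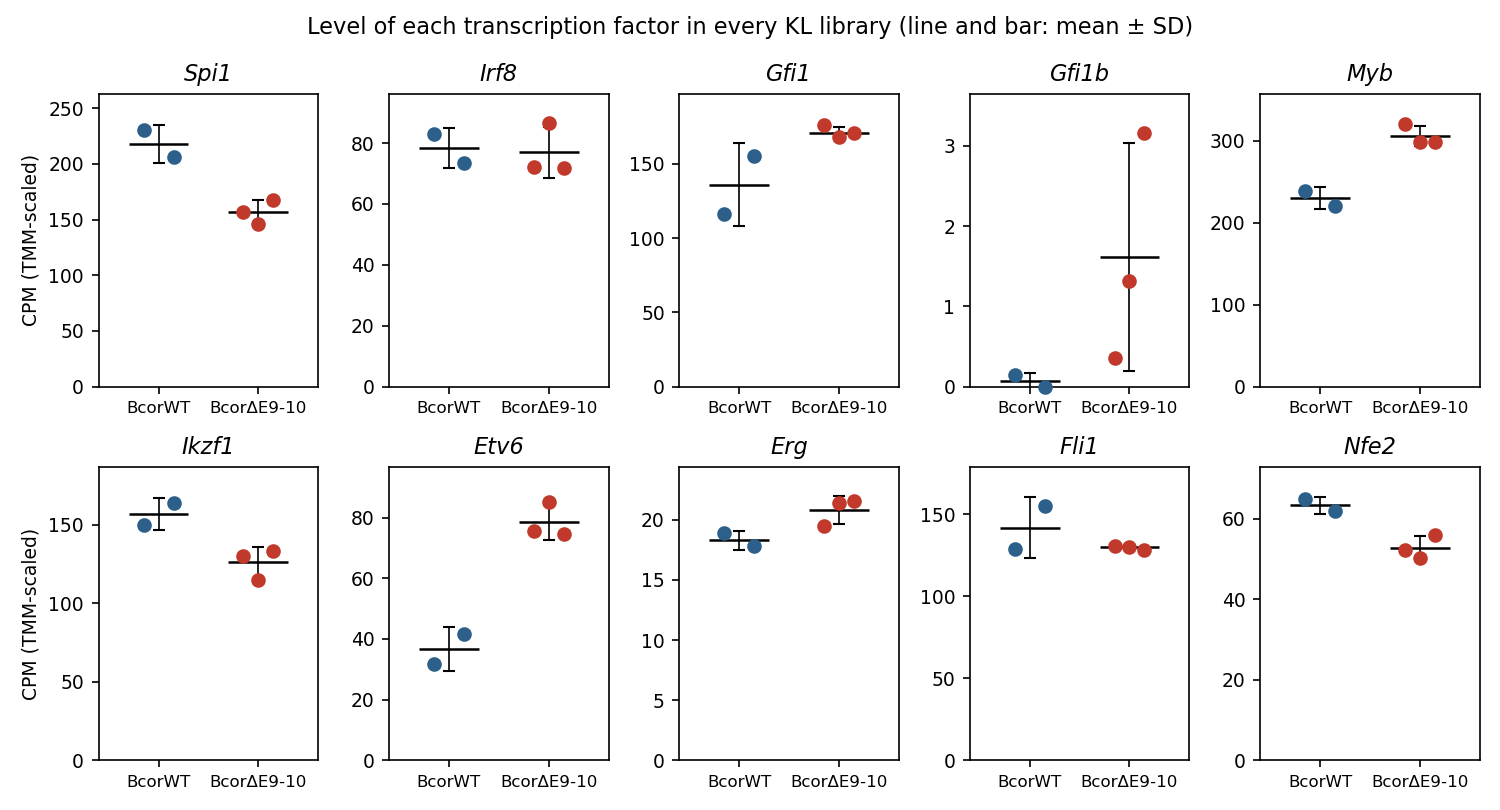
CPM of each factor (vertical axes, from 0, a separate scale in each panel) in the 2 BcorWT (blue) and 3 BcorΔE9-10 (red) libraries, with mean and SD. Etv6 lay between 74.7 and 85.2 CPM in BcorΔE9-10, above 31.7 and 41.8 CPM in BcorWT, whereas the libraries of Irf8 and Fli1 overlapped.

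Of the Ets factors, Etv6 had the clearest difference. Etv6, on chromosome 6 from 134035700 to 134270158 of mm10, encodes a repressor required for stem cells to persist in adult marrow. It was at 75.6, 85.2 and 74.7 CPM in the 3 BcorΔE9-10 libraries and at 31.7 and 41.8 CPM in the 2 BcorWT libraries. All mutant libraries lay above both controls, at a mean of 78.5 ± 5.80 CPM (SD, n = 3) against 36.7 ± 7.15 CPM (SD, n = 2). This was a 2.15-fold rise (log2 fold change 1.1, SE 0.157, adjusted p = 0.000374 in limma). It passed under all 16 alternatives to the processing, with log2 fold changes from 0.89 to 1.30. Its raw counts, 640, 522 and 639 against 223 and 282, were far above those of Gm17089, a gene on the other strand that overlaps it by 135 bases and had at most 5 counts in a library.

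Spi1 moved the other way. Spi1, on chromosome 2 from 91082390 to 91115756, encodes PU.1, whose dose sets the balance between monocyte and granulocyte fates. Its level was 157, 146 and 168 CPM in BcorΔE9-10 and 230.0 and 206 CPM in BcorWT. The groups did not overlap, and the fold change was 0.72 (log2 fold change -0.47, SE 0.114, adjusted p = 0.0154 in limma). The call was lost without BcorWT replicate 1 (-0.40, adjusted p = 0.109 in limma), without BcorΔE9-10 replicate 1 (-0.47, adjusted p = 0.0524), with total counts as the only scaling (-0.33, adjusted p = 0.0881) and after a correction for GC content (-0.37, adjusted p = 0.0545). The last 300 bases of its transcript are 61.0% GC, the highest of the 10 factors, and those of Etv6 34.3%.

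Erg and Fli1, close paralogues that maintain stem cells and the megakaryocyte lineage, did not pass the test. Erg was at 19.5, 21.4 and 21.6 CPM in BcorΔE9-10 and at 18.9 and 17.8 CPM in BcorWT. The mutant libraries lay above the controls by a small margin (log2 fold change 0.18, 95% interval -0.22 to 0.58, adjusted p = 0.596 in limma). Of its 30-base words near the transcript end, 5.17% also occur in another gene, whereas none of those of the other 9 factors do. Fli1 was at 131, 130.0 and 128 CPM in BcorΔE9-10 and at 129 and 155 CPM in BcorWT. The mutant libraries were nearly equal and close to 1 of the controls (-0.12, 95% interval -0.38 to 0.13, adjusted p = 0.559 in limma), and the sign turned to 0.02 with total counts alone and without BcorWT replicate 2.

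Irf8, on chromosome 8 from 120736358 to 120756694, is needed for monocytes and dendritic cells and is a partner of PU.1 on DNA. Its level was 72.2, 86.6 and 71.9 CPM in BcorΔE9-10 and 83.1 and 73.6 CPM in BcorWT. The groups overlapped, with 1 library of each group above 80 CPM. The log2 fold change was -0.04 (95% interval -0.33 to 0.25, adjusted p = 0.896 in limma), and it took the other sign under 6 of 16 alternatives.

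The repressors Gfi1 and Gfi1b recruit the demethylase LSD1 (Kdm1a) with CoREST to their targets. Gfi1, on chromosome 5 from 107716657 to 107726036, was at 176, 168 and 171 CPM in BcorΔE9-10 and at 116 and 155 CPM in BcorWT. The mutant libraries agreed closely and lay above both controls, which were themselves 0.42 apart on the log2 scale. The log2 fold change of 0.35 (SE 0.129, 95% interval 0.08 to 0.62) did not pass (adjusted p = 0.0971 in limma). The answer turned on the controls, since it was 0.56 (adjusted p = 0.0122) without BcorWT replicate 2 and 0.13 (adjusted p = 0.654) without BcorWT replicate 1, and it was 0.50 (adjusted p = 0.0232) with total counts alone.

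Gfi1b, on chromosome 2 from 28609450 to 28621982, was rare. Its counts in BcorΔE9-10 were 3, 8 and 27, whereas the BcorWT libraries held 1 and 0. Counts were highest in BcorΔE9-10 replicate 3, and replicate 1 was little above the controls. Gfi1b passed the filter on low counts only through mutant libraries, so that its being tested already depended on a high mutant level. Pooled over libraries, 38 counts against 1 correspond to a ratio of 25.1 (exact 95% interval 4.23 to 1020, counting error only). Such an interval treats the libraries of a group as 1 sample. It does not measure the spread between them and cannot establish a difference between the groups. Without BcorΔE9-10 replicate 3, a setting added after seeing the data, 11 counts against 1 give a ratio of 11.3 (exact 95% interval 1.64 to 486). The fitted log2 fold change of 3.28 (SE 1.323) did not pass (adjusted p = 0.13 in limma) and depends on how few counts are handled. It passed with no filter on low counts (adjusted p = 0.0345), where 19399 genes were tested, and the gene was not tested in 5 of the 16 alternatives, among them those without any 1 of the mutant libraries. Gfi1b is normally expressed in erythroid precursors, and the summed erythroid markers stood at 65.7, 145 and 263 CPM in BcorΔE9-10 replicates 1, 2 and 3 and at 24.7 and 68.3 CPM in the controls. The part of these cells in the Gfi1b counts was not tested.

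Myb, on chromosome 10 from 21124935 to 21160984, is required for progenitors to proliferate and is turned down as they mature. It was at 320.0, 298 and 299 CPM in BcorΔE9-10 and at 239 and 220.0 CPM in BcorWT. The groups were well separated, at 306 ± 12.0 CPM (SD, n = 3) and 230.0 ± 13.6 CPM (SD, n = 2). This was a 1.33-fold rise (log2 fold change 0.41, SE 0.106, adjusted p = 0.0201 in limma). The log2 fold change lay between 0.36 and 0.56 under the 16 alternatives, of which 13 passed. It did not pass without BcorWT replicate 2 (adjusted p = 0.0887), BcorΔE9-10 replicate 1 (adjusted p = 0.0887) or BcorΔE9-10 replicate 3 (adjusted p = 0.0638 in limma). Gm26577 overlaps Myb by 559 bases on the other strand and had at most 4 counts in a library, against 1486 to 2705 for Myb.

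Ikzf1, on chromosome 11 from 11685003 to 11772926, encodes Ikaros, which primes lymphoid genes in early progenitors and restrains stem cell genes. It was at 130.0, 115 and 133 CPM in BcorΔE9-10 and at 150 and 164 CPM in BcorWT. Every mutant library lay below both controls, and the log2 fold change of -0.32 (SE 0.118, 95% interval -0.57 to -0.07) did not pass (adjusted p = 0.103 in limma). After the GC correction it was -0.48 and passed (adjusted p = 0.0154). The last 300 bases of Ikzf1 are 34.7% GC, so that this correction moved Ikzf1 and Spi1 in opposite directions.

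Nfe2, on chromosome 15 from 103248212 to 103258403, is needed for platelet release. It was at 52.1, 50.1 and 55.9 CPM in BcorΔE9-10 and at 64.8 and 61.8 CPM in BcorWT. All mutant libraries were below the controls, but the log2 fold change of -0.26 (95% interval -0.55 to 0.02) did not pass (adjusted p = 0.241 in limma) and passed under none of the 16 alternatives (adjusted p from 0.208 to 0.661 across limma, edgeR and DESeq2 fits). In all, the groups did not overlap for 8 of the 10 factors, where 42.8% of all genes tested did not overlap.

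**Figure D2:**
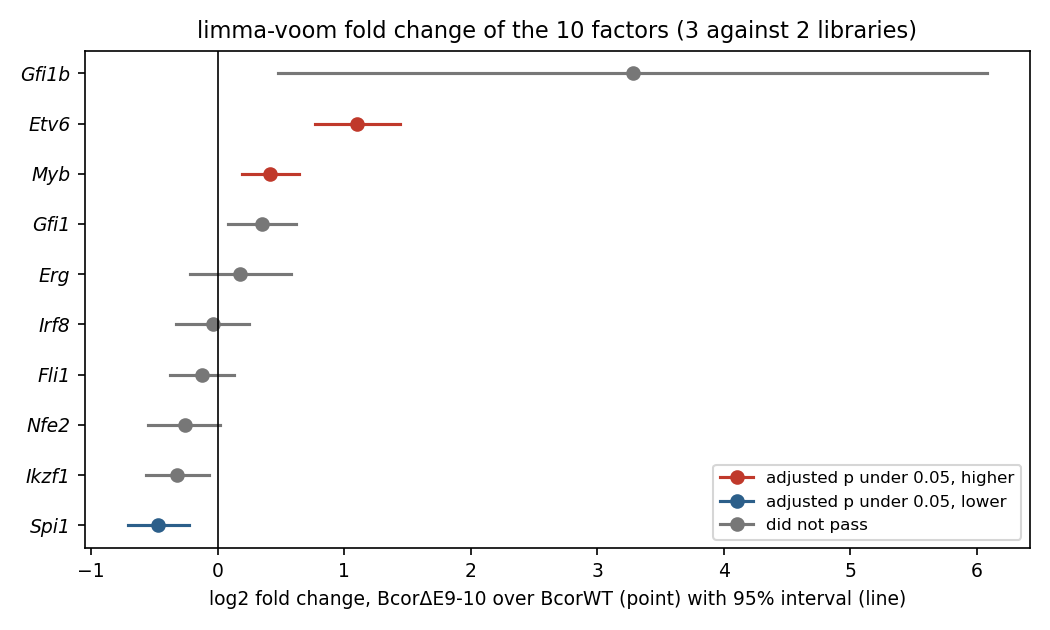
log2 fold change of BcorΔE9-10 over BcorWT (horizontal axis) for each factor, with its 95% interval as a line. Red marks a rise and blue a fall that passed an adjusted p of 0.05, grey the 7 that did not pass. Gfi1b, with 38 counts in all in the mutant, had by far the widest interval (0.48 to 6.08).

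**Figure D3:**
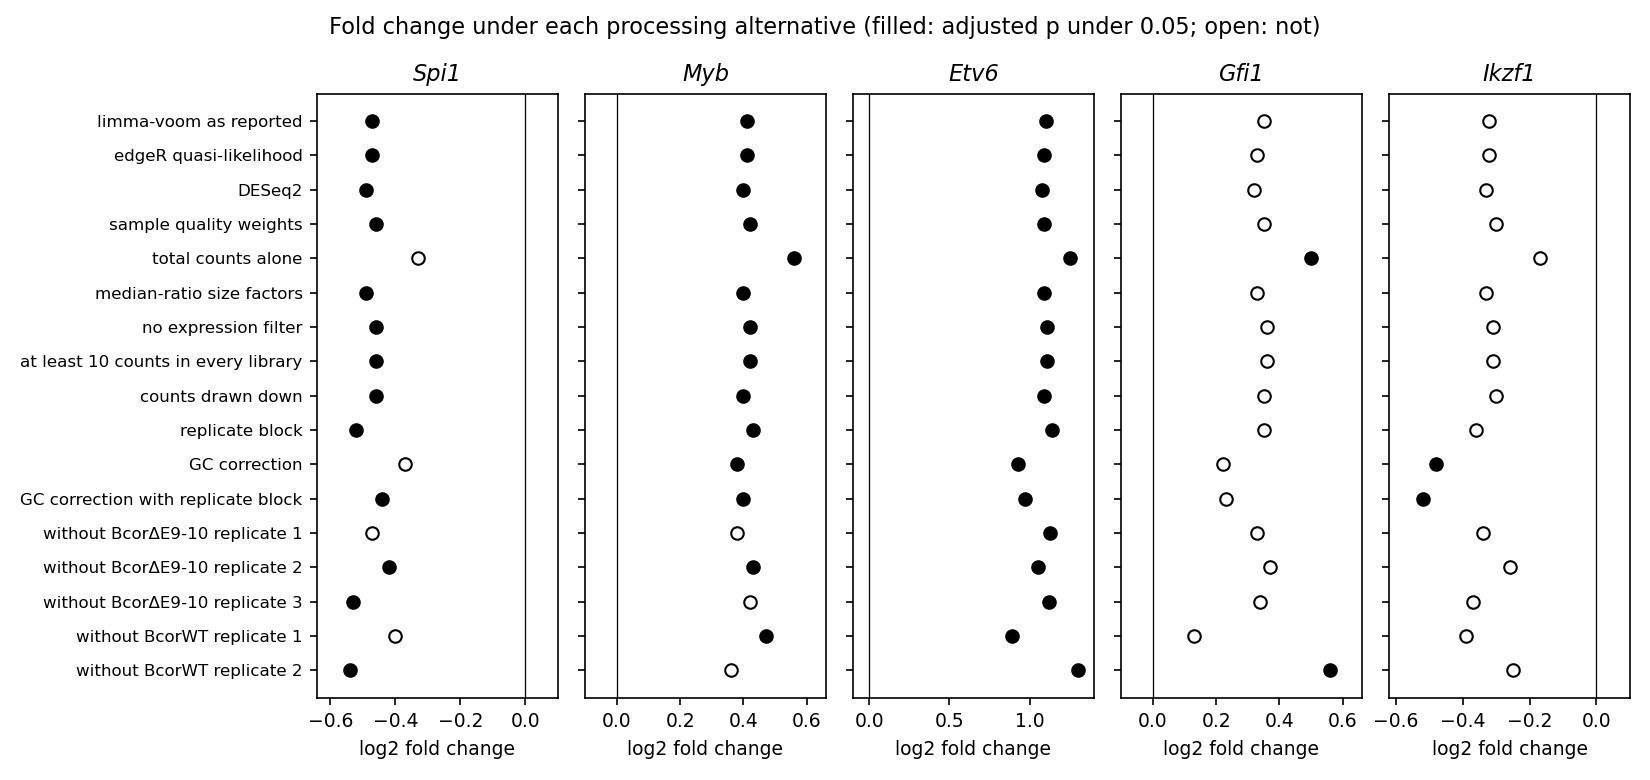
log2 fold change (horizontal axes, a separate scale in each panel) of 5 factors under limma-voom as reported and 16 alternatives (rows). Filled points had an adjusted p under 0.05. Etv6 was filled in every row, Spi1 was open in 4 and Myb in 3, and Gfi1 and Ikzf1 were filled in 2 each.

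To ask whether opposed or related factors moved against each other, ratios were taken within each library, where they do not depend on library scaling. There were 5 such pairs. With 3 against 2 libraries there are 10 arrangements, and the smallest two-sided p that the exact permutation test can give is 0.2, so that no pair could reach 0.05. The log2 ratio of Spi1 to Gfi1 was -0.16, -0.20 and -0.02 in BcorΔE9-10 and 0.98 and 0.40 in BcorWT. Spi1 counts thus exceeded Gfi1 counts in both control libraries and in none of the mutant libraries, a difference of -0.82 (exact permutation p = 0.2, 0.25 adjusted over the 5 pairs). This difference was -0.53 without BcorWT replicate 1 and -1.11 without BcorWT replicate 2. The ratio of Irf8 to Gfi1 overlapped between the groups, at -1.28, -0.95 and -1.25 against -0.49 and -1.08 (difference -0.38, exact permutation p = 0.4, adjusted 0.4). It was -0.08 without BcorWT replicate 1 and -0.67 without BcorWT replicate 2.

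The other 3 pairs did not overlap, each with the smallest p the test allows (exact permutation p = 0.2, adjusted 0.25). The log2 ratio of Erg to Fli1 was -2.74, -2.60 and -2.56 in BcorΔE9-10 and -2.76 and -3.12 in BcorWT (difference 0.31), with 1 mutant and 1 control library nearly equal. It was 0.13 without BcorWT replicate 2 and 0.49 without BcorWT replicate 1. That of Nfe2 to Spi1 was -1.59, -1.54 and -1.59 against -1.83 and -1.73 (difference 0.21), with all mutant libraries above both controls. Of Gfi1b to Gfi1 the difference was 2.94 with 0.5 added to each count and 1.71 with 2 added, which shows how far it rests on a few counts.

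**Figure D4:**
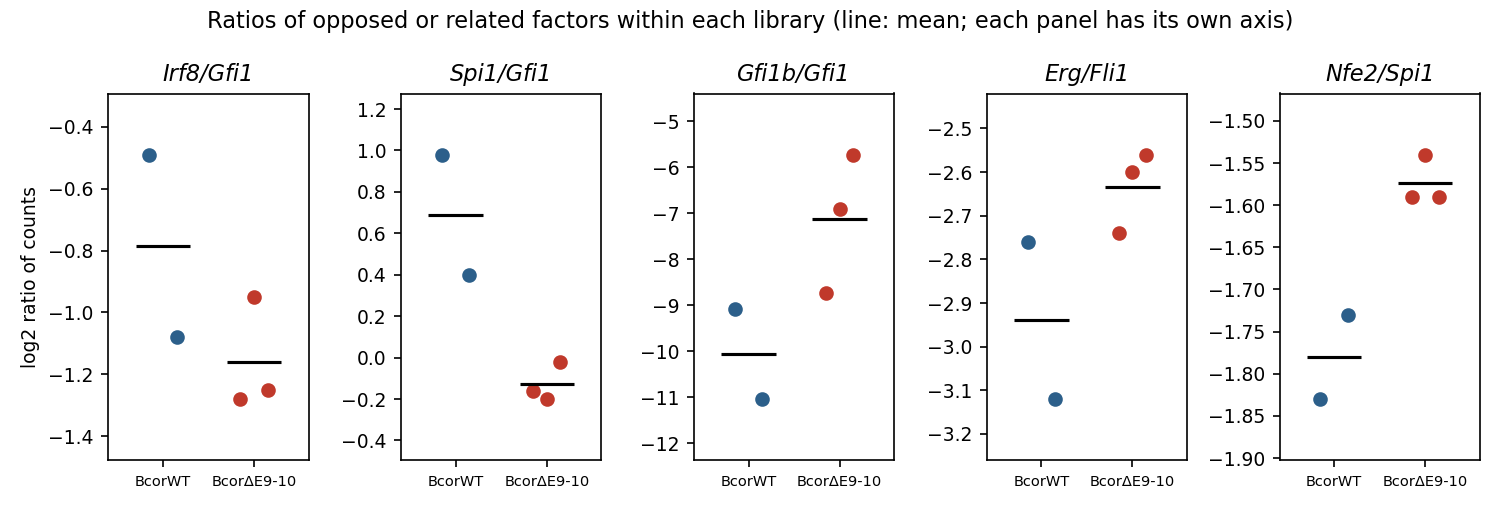
log2 ratio of the counts of 2 factors within each library (vertical axes, a separate scale in each panel) for BcorWT (blue, n = 2) and BcorΔE9-10 (red, n = 3), with the mean as a line. The Spi1/Gfi1 ratio was above 0 in both control libraries and below 0 in all 3 mutant libraries.

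Cofactors through which the factors act were read next. Of 16 cofactors, among them LSD1-CoREST, p300/CBP, NuRD and small Maf proteins, 15 were tested and 0 passed in limma, edgeR or DESeq2, where 4 had an unadjusted p under 0.05. Their median log2 fold change was 0.07. Rbbp4, the histone-binding subunit of NuRD and the cofactor with the highest mean CPM, was at 275, 300 and 284 CPM in BcorΔE9-10 and at 197 and 272 CPM in BcorWT (0.31, adjusted p = 0.144 in limma). With total counts alone Rbbp4 and Kdm1a passed.

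Relatives of the factors in the Ets, Irf, Ikaros, Myb and CNC families were tested for 24 of 32 genes. Of these 4 rose (16.7%, against 10.1% of all genes tested) and 20 did not pass, with a median of 0.17. Elf1, an Ets activator of blood genes, rose from 12.4 and 9.78 CPM in BcorWT to 19.5, 41.9 and 27.0 CPM in BcorΔE9-10 (log2 fold change 1.30, adjusted p = 0.014 in limma). Irf5 (0.82), Elk4 (0.63) and Nfe2l2 (0.61), which encodes the oxidative stress regulator Nrf2, also rose (adjusted p from 0.024 to 0.0369 in limma). After the GC correction only Elk4 and Irf5 of these passed. With 1 library left out, Elf1 passed in 5 of 5 fits, Nfe2l2 in 2 (without BcorΔE9-10 replicate 1 or BcorWT replicate 2), Elk4 in 1 (without BcorWT replicate 2) and Irf5 in 0, and Irf5 did not pass with the replicate block either. Spic, Ikzf4 and Nfe2l3 were at 0 in every library.

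Known targets and partners of the factors, and genes of the lineages they direct, were then taken in 6 lists of which 53 of 66 genes were tested and 11 passed (20.8%, where 10.1% of all genes tested passed). Without the list of Erg and Fli1 partners, 8 of 48 passed (16.7%), an alternative chosen after seeing the data. Over all genes the median log2 fold change was 0.004, and the share in the megakaryocyte list (11.1%) and in the Irf8 list (12.5%) was near the 10.1%. Of 11 tested genes activated through PU.1, 2 fell and 9 did not pass, with a median of -0.29. Those that fell were Lyz2, the lysozyme gene of myeloid cells, at 5200, 4320 and 4310 CPM against 6890 and 7150 CPM (-0.61, adjusted p = 0.000389 in limma), and Cybb, a subunit of the phagocyte oxidase (-0.55, adjusted p = 0.00366). The receptors Csf1r (-0.25) and Csf3r (0.01) did not pass (adjusted p = 0.576 and 0.987 in limma). Of the 11 genes 8 had a negative and 3 a positive log2 fold change. Itgam was at 120, 122 and 132 CPM against 96.4 and 96.5 CPM (0.37, adjusted p = 0.0618 in limma), and it passed as higher with total counts alone. Lyz2 and Cybb are also expressed by maturing neutrophils, whose markers were lower in the same libraries as given above, and the part of this in their fall was not tested. In the monocyte and dendritic list that needs Irf8, Cst3, the gene of the protease inhibitor cystatin C, rose in limma (0.35, adjusted p = 0.0489) but did not pass in edgeR or in 4 of 5 fits with 1 library left out (it passed without BcorWT replicate 2), and 7 of 8 tested genes did not pass. The median of this list was -0.23, with 2 log2 fold changes above 0 and 6 below, so that Cst3 does not stand for it. Ccr2 was at 5.2, 7.18 and 4.32 CPM against 12.8 and 7.85 CPM (-0.92, adjusted p = 0.0751 in limma). Batf3, Zbtb46 and Cd209d, markers of dendritic cells, had fewer than 10 counts in every library.

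Among 11 tested genes described as repressed by Gfi1 or Gfi1b, Hoxa9 rose from 2.27 and 2.22 CPM to 28.2, 20.9 and 32.8 CPM (3.56, adjusted p = 0.000192 in limma), and 9 did not pass. Of 9 genes activated through Myb, 2 rose. Myc, a driver of growth, was at 13.4, 16.0 and 9.47 CPM against 2.27 and 2.82 CPM (2.26, adjusted p = 0.00401 in limma), and Kit had a log2 fold change of 1.43 but was used for the sort. The granule genes Mpo (-0.09), Elane (0.12), Prtn3 (-0.17) and Ctsg (0.33) did not pass (adjusted p from 0.0895 to 0.593).

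The 5 partners of Erg and Fli1 in the stem cell factor network had a median of 0.91, and 3 rose while Erg and Fli1 themselves did not pass. Tal1 was at 9.22, 9.95 and 11.2 CPM in BcorΔE9-10 and at 5.25 and 2.37 CPM in BcorWT (1.48, adjusted p = 0.0202 in limma), and it did not pass without BcorΔE9-10 replicate 3 or without BcorWT replicate 2. Gata2 rose by 1.05 (adjusted p = 0.00726) and Lmo2 by 0.91 (adjusted p = 0.00163), whereas Runx1 (0.25) and Lyl1 (-0.18) did not pass (adjusted p = 0.313 and 0.371 in limma). Of 9 tested megakaryocyte genes, Tbxas1, the thromboxane synthase gene and an Nfe2 target, fell (-1.06, adjusted p = 0.0261 in limma) and 8 did not pass. The list as a whole did not fall, with a median of 0.19 and with 5 log2 fold changes above 0 and 4 below. Pf4 was at 23.5, 39.7 and 22.9 CPM against 21.0 and 12.2 CPM (0.75, adjusted p = 0.0921 in limma). With 1 library left out Tbxas1 passed in 1 of 5 fits, the one without BcorWT replicate 2. Tubb1, another Nfe2 target, was at 0 in every library, and Selp, Gp1ba, Gp6 and Ppbp stayed under 10 counts.

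**Figure D5:**
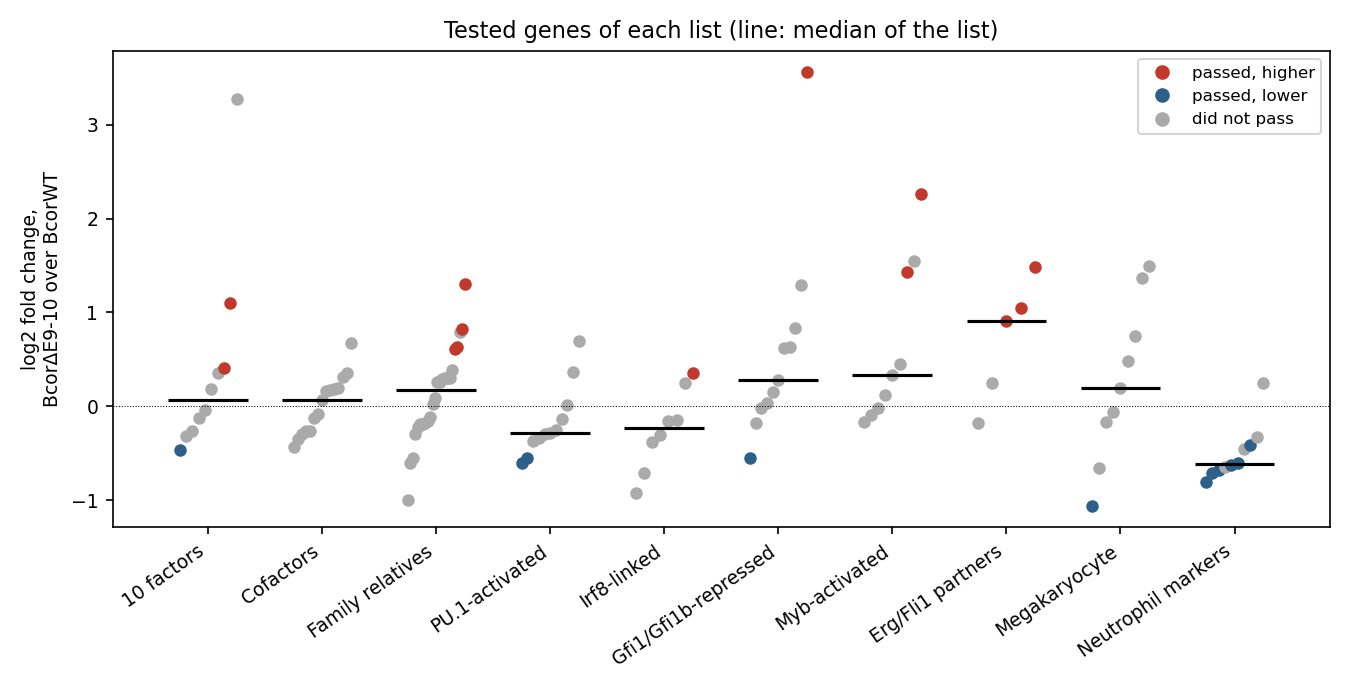
log2 fold change of BcorΔE9-10 over BcorWT (vertical axis) for every tested gene of 10 lists, with the median of each list as a line. Red and blue points passed an adjusted p of 0.05. The median was 0.91 for the partners of Erg and Fli1 and -0.62 for the neutrophil markers.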

How the data were processed

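KL cells of 3 BcorΔE9-10 and 2 BcorWT samples were profiled by QuantSeq 3′ RNA-seq. The authors demultiplexed reads with bcl2fastq (version 2.17.1.14, per the submitters' processing notes), removed low-quality reads, trimmed with cutadapt, used HISAT2 for alignment to mm10 and featureCounts of Subread (version 1.5.0-p3) for counting. The table they deposited holds raw counts for each gene, without normalisation. How strand and multimapping reads were treated is not given in the sources used here. Of 52550 gene identifiers, 52403 matched a symbol in GENCODE M21 (mm10).

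Groups came from the sample titles. Genes were kept with filterByExpr (minimum count 10, minimum total 15) of edgeR (version 4.0.16), scaled by TMM and tested two-sided with limma-voom (limma version 3.58.1, R version 4.3.3) over all 11766 genes with Benjamini-Hochberg adjustment at 0.05. CPM is per 1e+06 TMM-scaled counts. Totals ranged from 5998924 to 8303999 counts, and intervals from counts cover counting error only. Replicates differed by more than sampling noise and were kept separate. The 11 alternatives with all libraries were edgeR's quasi-likelihood test, DESeq2 (version 1.42.0), sample quality weights, other scalings and filters, counts drawn down to the smallest library, a replicate block, and removal of a lowess trend (span 0.3) on the GC content of the last 300 transcript bases, alone and with the block. In 5 more, 1 library each was left out. The procedures were tested on simulated counts.

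The 10 factors and the gene lists were chosen with earlier results of these data known, and lists were written from general knowledge. All 10 factors and Bcor were named. From each other list the called genes were named, up to 6 by absolute log2 fold change, or, with none called, the tested gene of highest mean CPM, and marker lists were given as sums. Genes named outside this rule (Csf1r, Csf3r, Itgam, Ccr2, Mpo, Elane, Prtn3, Ctsg, Runx1, Lyl1, Pf4, Camp, Siglecf and those with few counts) were chosen after their values were seen. Protein sequences were not analysed here. A few genes of the lists are counted but not reported here by name.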

Additional observations from a re-analysis of the deposited data

How the results depend on the processing

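The direction of Etv6, Myb, Spi1, Gfi1, Nfe2, Erg and Ikzf1 was kept under all 16 alternatives, and that of Gfi1b under the 11 in which it was tested. Irf8 changed sign with total counts alone (0.11), the replicate block (0.01), the GC correction (0.01) and both together (0.06), and Fli1 with total counts alone (0.02). Total counts alone moved the median over all genes from 0.004 to 0.15 on the log2 scale and called 1210 genes higher and 197 lower, where TMM scaling called 708 and 481. It also called 2 cofactors in place of 0. The GC correction called 2 family relatives in place of 4. For these changes the cause was not tested.

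Leaving out 1 library gave 558 to 1200 genes called (1189 with all libraries, 558 without BcorWT replicate 1, 723 without BcorΔE9-10 replicate 3, 774 without BcorΔE9-10 replicate 2), 1 to 3 of the 10 factors, 0 to 1 cofactors, 1 to 4 relatives (the 4 without BcorWT replicate 2 include Irf7, which was lower) and 7 to 12 genes of the target and partner lists. Of the factors only Etv6 passed without BcorΔE9-10 replicate 1. In the same fits log2 fold changes ranged from -0.12 to 0.04 for Irf8 and from -0.27 to 0.02 for Fli1. Where 1 BcorWT library remains, it is assumed to vary like the others. Samples share replicate numbers across groups, and deviations of same-numbered samples barely correlated (0.057 and 0.067). With 2 BcorWT libraries their deviations from the group mean mirror each other, so that these correlations cannot settle whether the numbers pair samples. With the replicate block 1454 genes were called, and the same 3 factors, Etv6, Myb and Spi1, passed. In that fit BcorΔE9-10 replicate 3 has no control in its block and adds nothing to the fold changes. With GC correction and block Ikzf1 also passed (-0.52, adjusted p = 0.00448 in limma). At 0 to 27 counts per library the level of Gfi1b was measured with low precision.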
